A study of Mus musculus with 32 samples.

Results

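A set of 10 genes of Wnt signalling was followed through primary chondrocytes of LG/J and SM/J mice: the ligand genes Wnt4, Wnt5a, Wnt5b, Wnt11 and Wnt16, the secreted antagonist genes Frzb, Sfrp1, Sfrp2 and Wif1, and the feedback gene Axin2. They were chosen by name, and all 10 were found among the 41388 genes of the count tables. All 10 also had enough reads for the tests.

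The cells came from the cartilage of femoral heads at postnatal day 21. They had been plated at 100000 per well in medium with 10% serum and were harvested without passage after 4 days of culture. LG/J is an inbred strain that repairs ear holes and injured cartilage well, while the inbred strain SM/J repairs them poorly. Each strain gave 8 libraries from females and 8 from males, so 16 libraries of LG/J were set against 16 of SM/J, and no treatment or engineered allele is given for any group. The labels do not say whether the 8 libraries of a group came from separate animals or cultures, so a p-value here measures the spread between libraries, which may be technical.

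Wnt proteins are secreted lipid-modified signals that bind Frizzled receptors. With the co-receptors Lrp5 and Lrp6 they stabilise β-catenin, which enters the nucleus and acts with TCF and LEF factors on target genes, while Wnt5a and Wnt11 are best known for signalling that does not need β-catenin. Antagonists such as the Sfrp proteins, Frzb (also called Sfrp3) and Wif1 bind Wnt ligands outside the cell, and Axin2 is a target gene whose product feeds back to promote the breakdown of β-catenin. In the growth plate Wnt5a and Wnt5b regulate the proliferation and maturation of chondrocytes, and Frzb was first isolated from cartilage.

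Some libraries stood apart from their groups. In the LG/J female and the LG/J male numbered 1, 7 chondrocyte marker genes (among them Col2a1, Acan and Sox9) summed to 1431 and 2367 CPM (counts scaled to library size with TMM factors). The sum lay between 12700 and 33290 CPM in the remaining 14 LG/J libraries, and between 7596 and 24340 CPM in SM/J. In the same 2 libraries 4 inflammatory genes (Il6, Cxcl1, Ccl2 and Mmp3) summed to 42170 and 31820 CPM, with a highest sum of 1140 CPM among the remaining LG/J libraries and of 2946 CPM in SM/J. Xist and Y-linked genes were both present in 6 libraries, called dual-signal libraries here: LG/J females 4 and 5, SM/J males 2 and 3, and the SM/J females with the numbers 3 and 4. Of these the 4 females held 35.5 to 130.0 CPM of 4 Y-linked genes, where no other female exceeded 1.78 CPM, and the 2 males held 16.3 and 17.7 CPM of Xist, where no other male exceeded 0.606 CPM. In addition, 6 pairs of libraries within groups were closer than the rest, with squared differences of 3.91 to 4.80 times sampling noise against at least 5.88 times in the other pairs. The median of the other pairs was 16.9 times. Next were SM/J females 7 and 8 (5.88), SM/J males 6 and 8 (5.91) and SM/J males 7 and 8 (5.95), which were not summed. Results are given without the libraries set apart above, or with the 6 pairs summed, where a call changed. None of the 7 chondrocyte markers was at 0 in either strain. Endothelial markers summed to at most 5.84 CPM in LG/J, against 3.45 CPM in SM/J, skeletal muscle markers to at most 1.92 CPM in LG/J, against 1.87 CPM in SM/J, and macrophage markers to a median of 57.9 CPM (15.2 to 826.1) in LG/J and 143.8 CPM (47.2 to 911.6) in SM/J. Osteoblast markers summed to a median of 1190 CPM (546.6 to 3848) in LG/J and 1102 CPM (692.8 to 2805) in SM/J. Osteoclast markers summed to a median of 355.9 CPM (136.6 to 456.5) in LG/J and 328.3 CPM (239.3 to 501.2) in SM/J. In these bulk samples fewer cells of a type and less RNA per cell cannot be told apart.

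Wif1 and Frzb stood far above the other 8 genes. By the deposited RPKM, which allows genes of different length to be set side by side, the median over all 32 libraries was 119 RPKM for Wif1 and 49.1 RPKM for Frzb. Wnt5a followed at 1.80 RPKM, Wnt4 at 1.08 RPKM and Wnt5b at 0.543 RPKM. Below these came Sfrp2 at 0.290, Sfrp1 at 0.212, Wnt11 at 0.207, Axin2 at 0.139 and Wnt16 at 0.0711 RPKM. Between Frzb, at 4.76 RPKM or more in every library, and Wnt5a, at 4.56 RPKM or less, the ranges did not overlap, while those of all other neighbours in this order did. Axin2 rested on 2 to 24 reads per library and Wnt16 on 0 to 19, so counting error alone is large for both. Wnt16 had no read in LG/J female 2, which allows up to 0.146 CPM there.

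**Figure D1:**
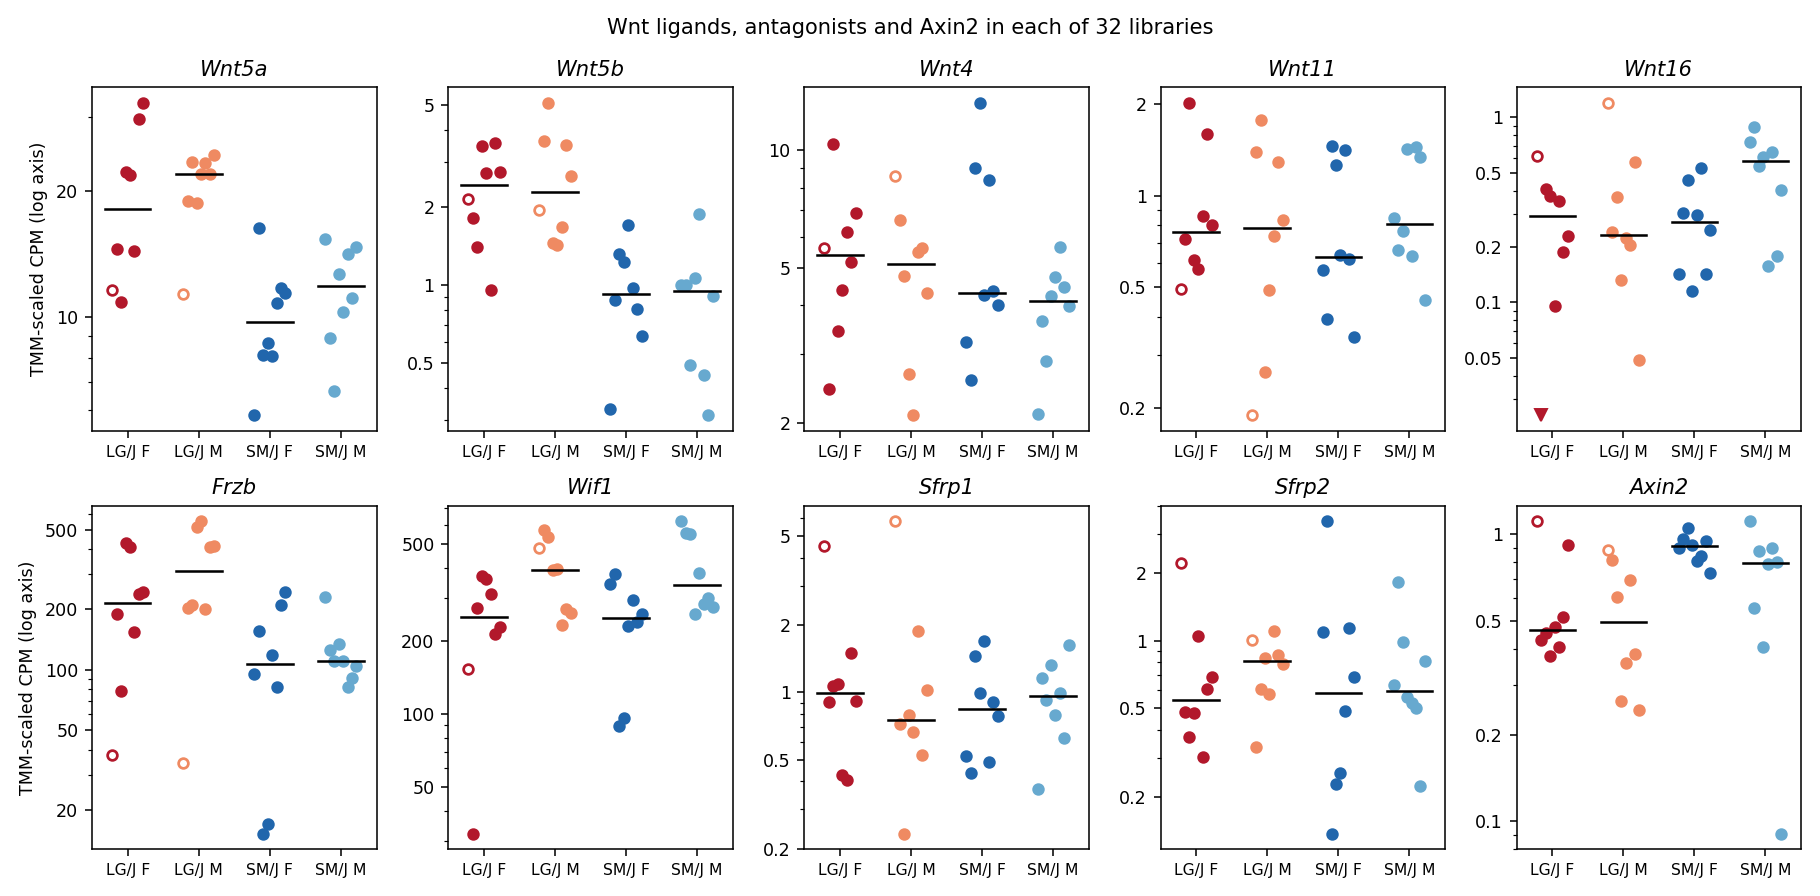
TMM-scaled CPM of each gene in each library on a log axis, with LG/J females (F) and males (M) left of SM/J females and males. Bars are group medians, open circles are LG/J female 1 and LG/J male 1, and the triangle marks the library with no Wnt16 read, drawn at an arbitrary low position; Wnt5a and Wnt5b sit higher in LG/J in both sexes.

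Promoter sequences of RefSeq on GRCm38.p6, from 250 bases before to 50 bases after an annotated start, were at hand for 8 of the 10 genes in 11 windows, and not for Wnt5a and Sfrp1. They are shown for 5 genes: Wnt5b and Frzb as genes higher in LG/J, Wnt4 and Wnt11 as the pair that moved together, and Axin2 as a classic target of TCF and LEF factors. For Wnt5b and Wnt11, which have several starts, the window printed is the only one that held a searched word. Capitals mark 4 TCF/LEF words, searched on both strands, and the word TATAAA. The first of these words is CTTTGAA and the next is CTTTGAT. The other words are CTTTGTA and also CTTTGTT. The windows are Wnt5b start 3 (chr6:119449337-119449636, minus strand), Frzb (chr2:80447347-80447646, minus strand), Wnt4 (chr4:137277385-137277684, plus strand), Wnt11 start 1 (chr7:98834862-98835161, plus strand) and Axin2 (chr11:108920099-108920398, plus strand), each written 5′ to 3′ on the strand of its gene.
Wnt5b start 3: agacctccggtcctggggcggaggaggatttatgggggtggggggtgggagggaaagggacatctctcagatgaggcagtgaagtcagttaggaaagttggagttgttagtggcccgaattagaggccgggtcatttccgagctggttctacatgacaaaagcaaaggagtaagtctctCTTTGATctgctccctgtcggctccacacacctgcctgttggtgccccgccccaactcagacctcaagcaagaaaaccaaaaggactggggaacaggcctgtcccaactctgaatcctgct
Frzb: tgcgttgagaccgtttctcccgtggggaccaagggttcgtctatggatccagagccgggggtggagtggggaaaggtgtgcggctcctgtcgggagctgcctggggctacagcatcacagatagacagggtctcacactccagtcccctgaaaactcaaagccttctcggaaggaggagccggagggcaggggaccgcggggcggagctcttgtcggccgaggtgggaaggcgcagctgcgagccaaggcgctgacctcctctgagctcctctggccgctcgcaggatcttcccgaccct
Wnt4: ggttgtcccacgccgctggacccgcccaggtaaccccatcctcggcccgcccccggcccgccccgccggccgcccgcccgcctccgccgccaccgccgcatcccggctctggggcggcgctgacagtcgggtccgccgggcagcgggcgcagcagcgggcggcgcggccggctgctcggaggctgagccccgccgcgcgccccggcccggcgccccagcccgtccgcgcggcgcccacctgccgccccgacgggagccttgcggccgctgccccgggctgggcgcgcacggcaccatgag
Wnt11 start 1: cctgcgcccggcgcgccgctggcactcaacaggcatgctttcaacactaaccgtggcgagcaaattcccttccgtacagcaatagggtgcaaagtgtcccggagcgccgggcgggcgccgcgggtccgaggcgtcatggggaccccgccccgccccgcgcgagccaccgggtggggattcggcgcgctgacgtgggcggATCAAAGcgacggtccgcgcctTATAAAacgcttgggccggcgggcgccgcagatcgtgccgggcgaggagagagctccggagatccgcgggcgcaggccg
Axin2: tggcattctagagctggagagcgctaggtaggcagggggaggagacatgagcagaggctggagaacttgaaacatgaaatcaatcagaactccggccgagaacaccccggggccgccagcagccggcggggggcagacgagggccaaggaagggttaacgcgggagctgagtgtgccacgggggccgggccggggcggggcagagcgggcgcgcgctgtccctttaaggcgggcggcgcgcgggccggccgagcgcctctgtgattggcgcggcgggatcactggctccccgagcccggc

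A TCF/LEF word occurred in 16.9% of 32851 promoters of the same length and TATAAA in 13.6%. The Wnt11 window held CTTTGAT on the opposite strand 51 bases before the start (printed as ATCAAAG) and TATAAA 29 bases before it. The Wnt5b window at start 3 held CTTTGAT 71 bases before the start, and those at its other 2 starts held neither word. Wif1 held TATAAA on the opposite strand 232 bases before its start. No word was found in the windows of Axin2, Frzb, Wnt4, Wnt16 and Sfrp2, nor at the second start of Wnt11. The Wnt4 window was 84.3% G and C, that of Frzb 64.7%. A match is a string of letters and does not show binding.

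Over both sexes, 3 of the 10 genes differed between the strains at an adjusted p under 0.05 in edgeR's quasi-likelihood test, Wnt5a, Wnt5b and Frzb, all higher in LG/J. Over all 16136 genes tested the share called was 29.9%, with 16.4% higher and 13.5% lower in LG/J, so the share of the 10 genes was close to that of genes in general. The count was 2 of 10 without the 6 dual-signal libraries, where 23.8% of all genes were called, and 2 of 10 with the close pairs summed, where 22.1% were. Without the LG/J libraries numbered 1 it was 4 of 10, 3 higher and 1 lower (Axin2), where 32.2% of all genes were called. Over all libraries none of the 10 was called lower, and Axin2 was the only one lower at an unadjusted p under 0.05. Neither DESeq2 nor limma voom called any of them lower. The median log2 fold change of the 10 genes was 0.07, beside 0.02 over all genes. The strains overlapped in the levels of all 10 genes, and 2.62% of all genes had no overlap.

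The ligand gene Wnt5a (ENSMUSG00000021994, GRCm38 chromosome 14, 28504750 to 28527447, plus strand) was about 1.84-fold higher in LG/J. It ran from 10.9 to 32.4 CPM in LG/J with a median of 21.8 CPM, and from 5.83 to 16.3 CPM in SM/J with a median of 10.9 CPM. In all, 11 of the 16 LG/J libraries lay above every SM/J library, and 8 of the 16 SM/J libraries lay below every LG/J library. The log2 fold change was 0.88 ± 0.16 (standard error, SE; adjusted p = 4.32e-05), and 0.97 ± 0.15 without the LG/J libraries numbered 1 (adjusted p = 5.59e-06). Those 2 libraries, female 1 at 11.6 CPM and male 1 at 11.4 CPM, were among the 3 lowest of LG/J, with LG/J female 3 at 10.9 CPM. Within the sexes Wnt5a was higher in LG/J females (0.96 ± 0.22, adjusted p = 0.00232) and in LG/J males (0.81 ± 0.22, adjusted p = 0.00763). The shares of all genes called within the sexes were 13.4% in females and 22.3% in males. Without the 6 dual-signal libraries the call in males was lost (0.66 ± 0.24, adjusted p = 0.056), where 19.6% of all genes were called in males and 9.92% in females.

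Wnt5b, whose product is closely related to that of Wnt5a (ENSMUSG00000030170, chromosome 6, 119432531 to 119544347, minus strand), was about 2.66-fold higher in LG/J. It ran from 0.960 to 5.08 CPM in LG/J with a median of 2.40 CPM, and from 0.313 to 1.89 CPM in SM/J with a median of 0.939 CPM. All 16 LG/J libraries lay above the SM/J median, and 10 of them lay above every SM/J library. The log2 fold change was 1.41 ± 0.24 (adjusted p = 3.19e-05). It was 1.25 ± 0.34 in females (adjusted p = 0.0119) and 1.58 ± 0.35 in males (adjusted p = 0.00106), and the call in females was lost without the 6 dual-signal libraries (1.23 ± 0.42, adjusted p = 0.0634). Wnt5b overlaps Fbxl14 on the opposite strand, and the sources used here do not say whether counting used strand. None of the 2602 words of 50 bases in Wnt5b transcripts stood in an annotated transcript of another gene on either strand. Fbxl14 itself averaged 3.12 CPM and did not pass between strains (log2 fold change -0.05, adjusted p = 0.783).

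The other 3 ligand genes did not pass between strains. Wnt4 (ENSMUSG00000036856, chromosome 4, 137277489 to 137299726, plus strand), which acts in growth plate maturation, ran from 2.10 to 10.4 CPM in LG/J with a median of 5.32 CPM, and from 2.11 to 13.2 CPM in SM/J with a median of 4.24 CPM (log2 fold change 0.10 ± 0.22, adjusted p = 0.786). The highest values were those of LG/J female 3 and SM/J female 4. Wnt11 (ENSMUSG00000015957, chromosome 7, 98835112 to 98855195, plus strand) ran from 0.189 to 2.02 CPM in LG/J and from 0.343 to 1.46 CPM in SM/J, with a median of 0.769 CPM for LG/J and 0.714 CPM for SM/J (0.04, adjusted p = 0.93). Its lowest library was LG/J male 1. Wnt16 (ENSMUSG00000029671, chromosome 6, 22288227 to 22298522, plus strand), a ligand known in bone and cartilage injury, ran from 0 to 1.20 CPM in LG/J and from 0.115 to 0.886 CPM in SM/J, with a median of 0.235 CPM for LG/J and 0.357 CPM for SM/J. Its log2 fold change was -0.25 ± 0.36 (adjusted p = 0.653) and -0.61 ± 0.34 without the LG/J libraries numbered 1 (adjusted p = 0.178). LG/J male 1 held its highest value of all 32 libraries, 1.20 CPM from 19 reads.

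**Figure D2:**
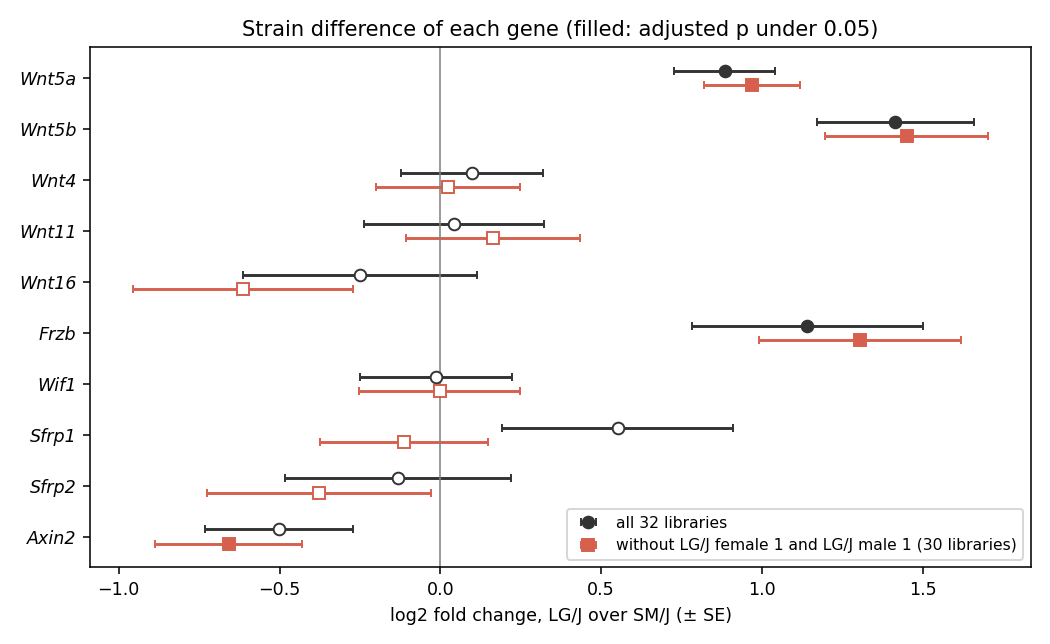
Log2 fold change of LG/J over SM/J with its standard error for each gene, from all 32 libraries (circles) and without LG/J female 1 and LG/J male 1 (squares), filled where the adjusted p was under 0.05. Wnt5a, Wnt5b and Frzb are filled in both sets, Axin2 is filled at -0.66 in the second set, and Sfrp1 lies at 0.55 in the first set and at -0.11 in the second.

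Summed over the family, Wnt transcripts had the higher median in LG/J. The RPKM of all 19 Wnt genes of the lists summed to a median of 7.02 in LG/J (4.18 to 10.0) and 4.18 in SM/J (2.45 to 7.01). Wnt5a took a median of 41.4% of the sum in LG/J and 33.4% in SM/J. Wnt5b took 14.2% in LG/J and 7.8% in SM/J. The share of Wnt4 ran the other way, at 17.6% in LG/J and 25.6% in SM/J. Wnt10b, a ligand known for β-catenin signalling, took 13.8% in LG/J and 12.8% in SM/J. These shares add to a fixed total, so a larger share of one ligand lowers the others, and they were not tested. The ranges of the sum and of each of these shares overlapped between the strains.

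**Figure D3:**
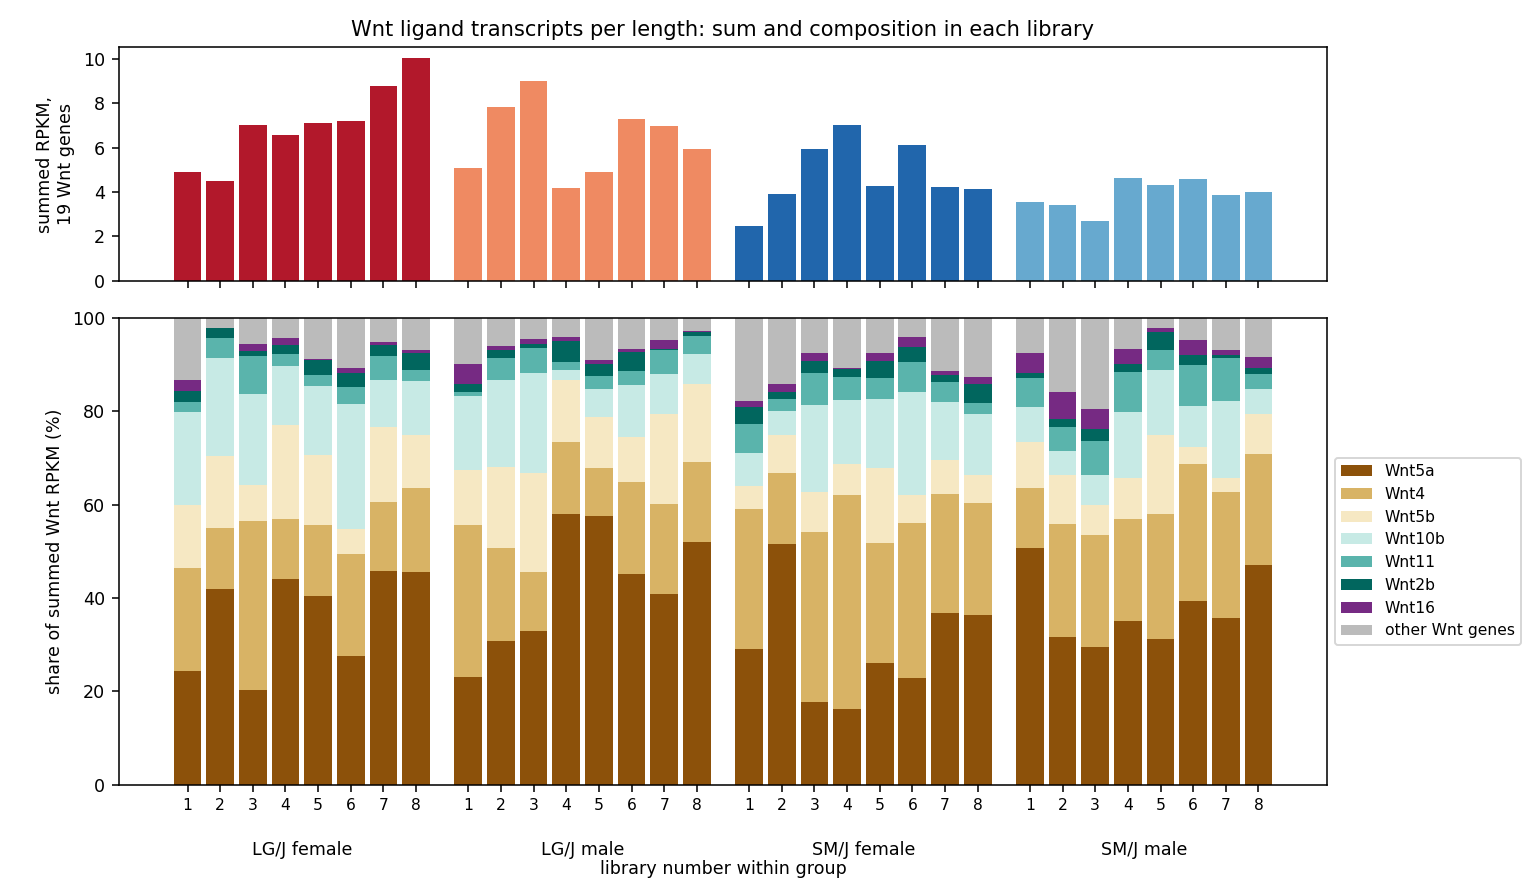
Summed RPKM of 19 Wnt genes (top) and the percentage of that sum taken by each ligand (bottom) in each library, with LG/J left of SM/J. The median sum was 7.02 RPKM in LG/J and 4.18 RPKM in SM/J, and Wnt5a, at the foot of each bar, took a median of 41.4% in LG/J and 33.4% in SM/J.

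Among the antagonists, Frzb (ENSMUSG00000027004, chromosome 2, 80411970 to 80447625, minus strand) was about 2.21-fold higher in LG/J. It ran from 34.2 to 548.6 CPM in LG/J with a median of 225 CPM, and from 15.2 to 243.6 CPM in SM/J with a median of 110.7 CPM. In all, 7 LG/J libraries lay above every SM/J library. The 4 lowest libraries of all were SM/J females 3 and 4, at 15.2 and 17.1 CPM, and the LG/J male and female numbered 1, at 34.2 and 37.5 CPM. The log2 fold change was 1.14 ± 0.36 (adjusted p = 0.0156), and 1.31 ± 0.31 without the LG/J libraries numbered 1 (adjusted p = 0.00181). The call was lost without the 6 dual-signal libraries (0.69 ± 0.33, adjusted p = 0.138) and with the 6 close pairs summed (0.86 ± 0.38, adjusted p = 0.114), within a range of adjusted p over all alternatives of 0.000846 to 0.138. With the library number as a block in the fit the call was lost as well. It held without both those 6 libraries and the LG/J libraries numbered 1 (0.89 ± 0.25, adjusted p = 0.00895).

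Within the sexes the strain difference of Frzb did not pass over all libraries. In females it was 0.92 ± 0.51 (adjusted p = 0.267) and in males 1.36 ± 0.51 (adjusted p = 0.0537). Without the LG/J libraries numbered 1 the difference in males passed (1.53 ± 0.45, adjusted p = 0.0117, with 24.7% of all genes called) and that in females did not (1.08 ± 0.44, adjusted p = 0.0999). Without the 6 dual-signal libraries it was 0.05 in females (adjusted p = 0.974) and 1.34 ± 0.47 in males (adjusted p = 0.0447). The strain difference in males minus that in females was 0.44 ± 0.71 over all libraries (adjusted p = 0.963) and 1.29 ± 0.66 without the 6 dual-signal libraries (adjusted p = 0.443), so a difference between the sexes was not shown.

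Chondrocyte markers moved with Frzb. The 7 markers summed to a median of 24110 CPM in LG/J, against 16100 CPM in SM/J, and 3 of 7 were called higher in LG/J and none lower, at a list median of 0.62 beside 0.02 over all genes. Without the LG/J libraries numbered 1, where the difference of Frzb was 1.31, 5 of the 7 were called higher. None of the 7 was called without the 6 dual-signal libraries or with the close pairs summed, where Frzb also lost its call. Of 3 superficial zone markers, Prg4 (log2 fold change 1.83, adjusted p = 0.00243; 1.06, adjusted p = 0.0219 without the LG/J libraries numbered 1) and Vit (0.64, adjusted p = 0.0345) were higher in LG/J and Tspan15 was lower (-1.04, adjusted p = 0.0203). After each strain-by-sex mean was subtracted, Frzb followed the marker sum over 30 libraries without the LG/J libraries numbered 1 (Pearson r = 0.84, permutation p = 1e-05, the smallest the permutations can give, adjusted p = 0.0004 over 40 relations; Spearman rho = 0.771, permutation p = 2e-05). Without the 2 libraries farthest from the median marker sum, r was 0.771, and with the close pairs averaged to 24 values it was 0.823. The 2 left out were SM/J female 3 and LG/J female 3, so SM/J female 4, the close pair of SM/J female 3, stayed in. This relation was not computed without the 6 dual-signal libraries. A list of 7 genes of dedifferentiated or fibroblastic cells, among them Col1a1 and Postn, summed to 354.7 to 3908 CPM in LG/J, against 987.6 to 5296 CPM in SM/J, with 1 gene called higher and 2 lower in LG/J. Their sum ran against Frzb at r = -0.574, with an adjusted permutation p of 0.0537 (rho = -0.596, adjusted permutation p = 0.0324). The part of chondrocyte or superficial zone content in the strain difference of Frzb was not tested. The relation of Wif1 to the chondrocyte markers did not pass (r = 0.0993, rho = 0.179, permutation p = 0.674 for r).

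Wif1 (ENSMUSG00000020218, chromosome 10, 121033960 to 121100650, plus strand), the most abundant of the 10 per length, had nearly the same median in both strains. It ran from 32.2 to 572 CPM in LG/J with a median of 292.8 CPM, and from 89.5 to 618.9 CPM in SM/J with a median of 289.5 CPM. The log2 fold change was -0.01 (adjusted p = 0.974). LG/J female 2 was the lowest library, and SM/J females 3 and 4, the lowest for Frzb, were the next 2 at 89.5 and 96.6 CPM.

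Sfrp1 and Sfrp2, which bind Wnt ligands outside the cell, were low and did not pass. Sfrp1 (ENSMUSG00000031548, chromosome 8, 23411502 to 23449632, plus strand) ran from 0.233 to 5.81 CPM in LG/J with a median of 0.913 CPM, and from 0.370 to 1.70 CPM in SM/J with a median of 0.915 CPM. Its 2 highest values were those of the LG/J male and female numbered 1, 5.81 and 4.50 CPM, and no other library exceeded 1.88 CPM. The log2 fold change was 0.55 ± 0.36 with them (adjusted p = 0.265) and -0.11 ± 0.26 without them (adjusted p = 0.784). Sfrp2 (ENSMUSG00000027996, chromosome 3, 83766321 to 83774316, plus strand) ran from 0.303 to 2.22 CPM in LG/J and from 0.137 to 3.41 CPM in SM/J, with a median of 0.649 CPM for LG/J and 0.597 CPM for SM/J (-0.13 ± 0.35, adjusted p = 0.824). Sfrp2 is uncertain, because it shares 12.0% of its 50-base words with Gm26771, a gene on the opposite strand that averaged 0.63 CPM and was called higher in LG/J (log2 fold change 1.00 ± 0.25, adjusted p = 0.00276). Of the other 9 genes, Axin2, Wnt4, Wnt5a, Wnt11 and Sfrp1 shared 0.278% to 7.46% of such words with other genes, and Wnt16, Wnt5b, Frzb and Wif1 shared none.

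Axin2 (ENSMUSG00000000142, chromosome 11, 108920349 to 108950783, plus strand), the feedback gene, did not pass over all libraries. It ran from 0.245 to 1.11 CPM in LG/J with a median of 0.465 CPM, and from 0.0905 to 1.11 CPM in SM/J with a median of 0.857 CPM. In all, 13 of the 16 LG/J libraries lay below the SM/J median, and the 3 above it included both LG/J libraries numbered 1. The lowest value of all was in SM/J male 8, with 2 reads, while the 8 SM/J females lay between 0.735 and 1.05 CPM. The log2 fold change was -0.50 ± 0.23 (adjusted p = 0.0999). It was -0.66 ± 0.23 without the LG/J libraries numbered 1 (adjusted p = 0.0255), and the share of all genes called was then 32.2%. It also passed without LG/J female 1 alone (-0.60, adjusted p = 0.0455) and without SM/J male 8 alone (-0.59, adjusted p = 0.0234), within a range of adjusted p over all alternatives of 0.0234 to 0.301. In females it was -0.62 ± 0.32 (adjusted p = 0.231) and in males -0.38 ± 0.33 (adjusted p = 0.456). No pair of Axin2 with another of the 10 genes passed adjustment over the 45 pairs by both Pearson and Spearman.

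**Figure D4:**
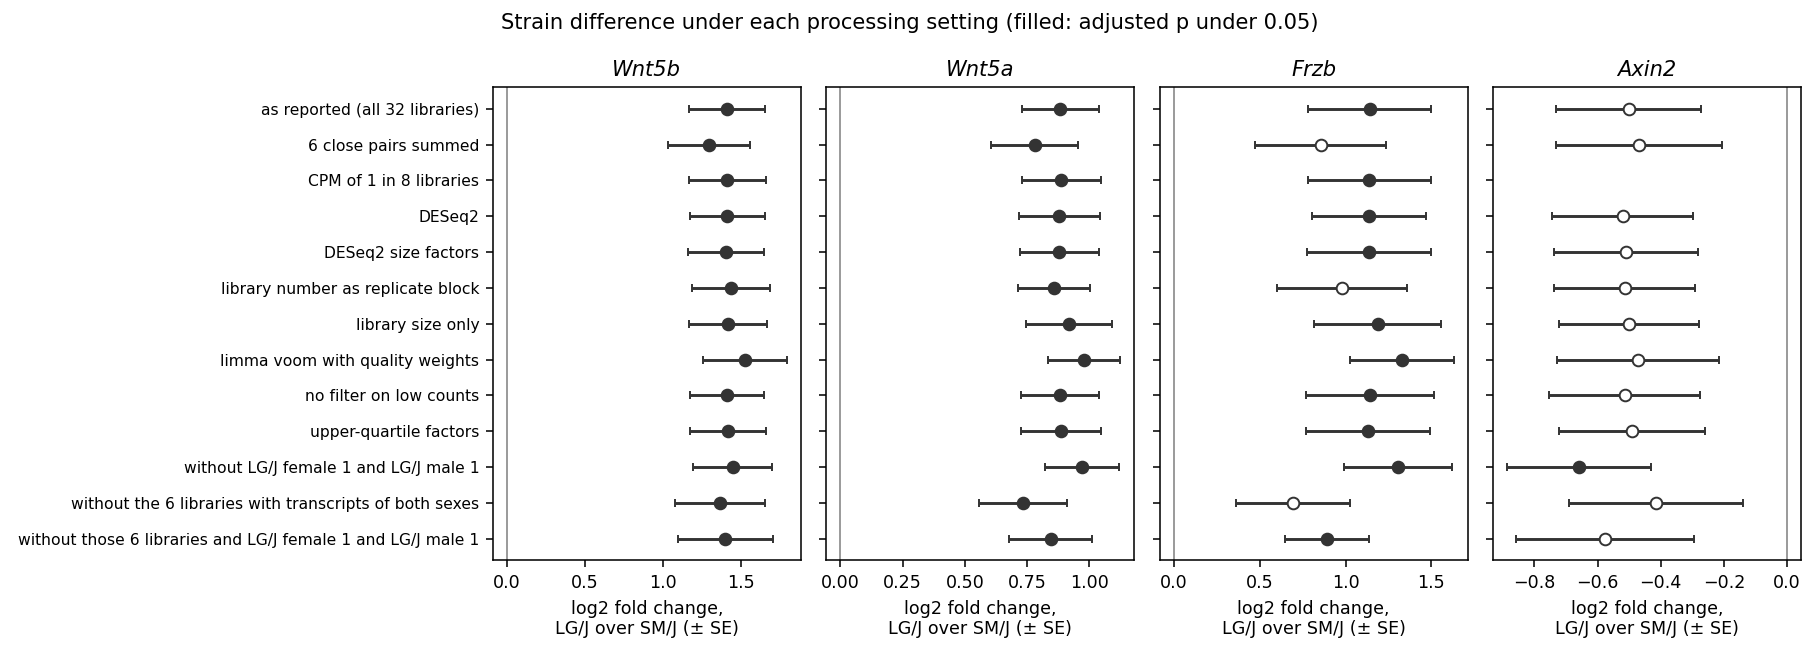
Log2 fold change of LG/J over SM/J with its standard error for Wnt5b, Wnt5a, Frzb and Axin2 under each processing setting, filled where the adjusted p was under 0.05. Wnt5a and Wnt5b are filled in every setting, Frzb is open in 3 settings (among them without the 6 dual-signal libraries, given on the axis by their transcripts), Axin2 is filled without LG/J female 1 and LG/J male 1, and Axin2 has no value under the filter that asks for a CPM of 1 in 8 libraries.

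No difference between males and females was called in any of the 10 genes. The 6 dual-signal libraries, which held transcripts of both sexes, were kept in these tests, which limits them as tests of sex. In LG/J males against LG/J females 0 of 10 passed in edgeR's test, where 0.0496% of all genes did. In SM/J males against SM/J females 0 of 10 passed, where 5.76% of all genes did. Wif1 was the 1 gene at an unadjusted p under 0.05 in each strain, and it was not called in either. Its median was 392 CPM in LG/J males, against 250.9 CPM in LG/J females (log2 fold change 0.69 ± 0.34, adjusted p = 0.883). It was 340.0 CPM in SM/J males, against 247.5 CPM in SM/J females (0.74 ± 0.34, adjusted p = 0.215). The strain difference did not differ between the sexes past the threshold for any of the 10 genes, with none at an unadjusted p under 0.05, where 0.0062% of all genes passed. Other tools were not run for these contrasts.

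Within groups, 4 of the 45 pairs among the 10 genes moved together or against each other past adjustment by Pearson and by Spearman, over the 30 libraries without the LG/J libraries numbered 1. Wnt4 and Wnt11 moved together (r = 0.713, adjusted permutation p = 0.0018; rho = 0.703). Frzb ran against Wnt4 (r = -0.742, adjusted permutation p = 0.0018; rho = -0.715) and against Wnt11 (r = -0.647, adjusted permutation p = 0.0024; rho = -0.631). Wnt11 also ran against Sfrp2 (r = -0.527, adjusted permutation p = 0.0347; rho = -0.527). Without the 2 libraries farthest from the median the 4 values were 0.719, -0.75, -0.617 and -0.55, and with the close pairs averaged they were 0.746, -0.711, -0.612 and -0.514. With all 32 libraries r was 0.491 for Wnt4 and Wnt11 and -0.189 for Wnt11 and Frzb. Wnt4 ran against the chondrocyte markers too (r = -0.678, adjusted permutation p = 0.0056; rho = -0.646), so both genes moved with the marker sum, in opposite directions. The promoters of Wnt4 and Wnt11 printed above had no searched word in common. The p-values take libraries as independent, and the labels do not show that they are.

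**Figure D5:**
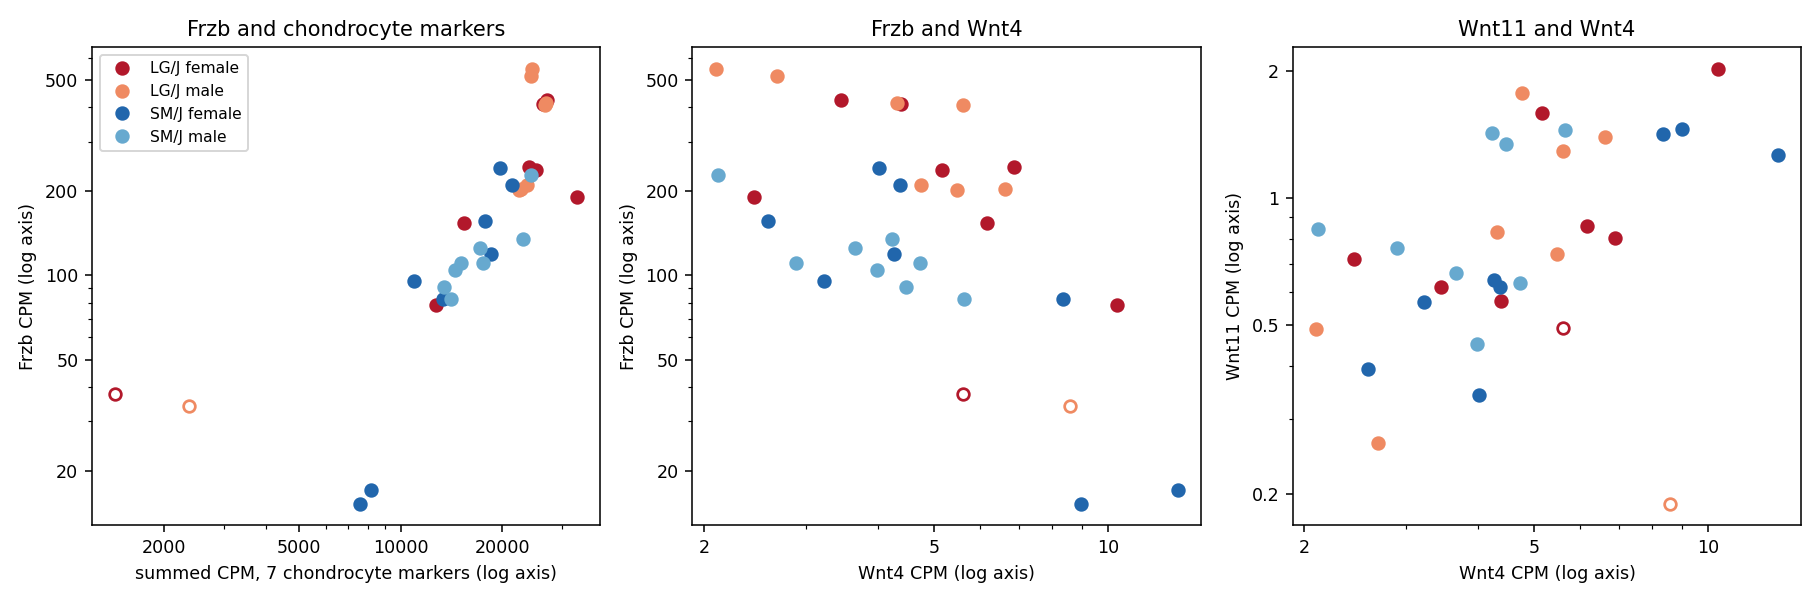
Levels in each library on log axes: Frzb against the summed CPM of 7 chondrocyte markers, Frzb against Wnt4, and Wnt11 against Wnt4, with open circles for LG/J female 1 and LG/J male 1. Frzb rises with the markers and falls with Wnt4, with SM/J females 3 and 4 at the low end of Frzb (15.2 and 17.1 CPM), and Wnt11 rises with Wnt4.

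The wider pathway was read from 10 lists of Wnt genes, which hold 102 genes besides these 10. Of 80 with enough reads, 23 were called higher and 9 lower in LG/J, 32 in all. Over all libraries the background was 29.9% of all genes. The count was 19 without the 6 dual-signal libraries, where 23.8% of all genes were called. With the close pairs summed it was 20, where 22.1% of all genes were called. Calls named below that these 2 settings end are given with their adjusted p there. The lists were not tested as lists.

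Other secreted antagonists went the way of Frzb where they were called. Of 7 measured, 4 were higher and none lower in LG/J by edgeR, 1 without the 6 libraries and 2 with the close pairs summed. Of the 4, Igfbp4 (log2 fold change 1.08, adjusted p = 0.0464) was not called without the LG/J libraries numbered 1 (0.12, adjusted p = 0.752). Nor was Igfbp4 called without the 6 dual-signal libraries (adjusted p = 0.136) or with the close pairs summed (adjusted p = 0.0847). Sostdc1, which binds Lrp co-receptors, averaged 0.821 ± 0.538 CPM in LG/J, against 0.132 ± 0.108 CPM in SM/J (± standard deviation over 16 libraries for levels from here on, and ± SE for log2 fold changes). Its log2 fold change was 2.60 ± 0.40 (adjusted p = 6.27e-06). In SM/J no library held more than 9 reads of Sostdc1 (0 to 0.383 CPM), so it passed the filter on reads through the LG/J libraries. Sfrp4 averaged 13.5 ± 6.47 CPM in LG/J, against 7.77 ± 4.43 CPM in SM/J (0.78 ± 0.23, adjusted p = 0.0103), and Sfrp5 2.04 ± 1.65 CPM in LG/J, against 0.752 ± 0.684 CPM in SM/J (1.46 ± 0.46, adjusted p = 0.0157). Without the 6 dual-signal libraries neither was called (adjusted p = 0.0681 for Sfrp4 and 0.33 for Sfrp5), nor was Sfrp5 with the close pairs summed (adjusted p = 0.111). The summed RPKM of Frzb, Wif1 and the 4 Sfrp genes Sfrp1, Sfrp2, Sfrp4 and Sfrp5 had a median of 220.9 in LG/J and 163.9 in SM/J. Divided by the ligand sum it was 34.3 in LG/J (14.2 to 79.9) and 40.0 in SM/J (7.32 to 91.5).

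Among the other ligands and the receptors, calls ran in both directions. Of the 14 ligand genes not among the 10, 2 had enough reads, and 1 of these was called, Wnt10b, at 2.26 ± 1.19 CPM in LG/J, against 1.25 ± 0.805 CPM in SM/J (0.88 ± 0.31, adjusted p = 0.0284). Without the 6 dual-signal libraries Wnt10b was not called (0.94 ± 0.35, adjusted p = 0.0542). Of 10 Frizzled receptors 3 were lower and none higher in LG/J by edgeR. Fzd5 averaged 1.09 ± 0.745 CPM in LG/J, against 5.13 ± 4.43 CPM in SM/J (-2.15 ± 0.34, adjusted p = 1.01e-05), Fzd9 fell by 0.83 (adjusted p = 0.0288) and Fzd8 by 0.46 (adjusted p = 0.00384), both on the log2 scale. The count was 2 lower without the 6 dual-signal libraries, where Fzd8 was not called (adjusted p = 0.0642). Of 11 other receptors and co-receptors 3 were higher and 1 lower. Lrp4, a co-receptor that binds sclerostin and other antagonists, differed most among the named genes of the Wnt lists, at 64.3 ± 45.7 CPM in LG/J, against 6.12 ± 1.36 CPM in SM/J (3.38 ± 0.31, adjusted p = 2.39e-10). Lgr4, a receptor for R-spondins, averaged 146.5 ± 38.3 CPM in LG/J, against 343.3 ± 47.2 CPM in SM/J (-1.23 ± 0.12, adjusted p = 5.01e-10). Lrp6 rose by 0.35 (adjusted p = 0.0112, and 0.0959 with the close pairs summed). Of the R-spondins, which strengthen Wnt signals through Lgr receptors, and Norrin, Ndp (Norrin) rose by 0.79 (adjusted p = 0.0103) and Rspo3 fell by 0.83 (adjusted p = 0.0312). Neither was called without the 6 dual-signal libraries (adjusted p = 0.088 for Ndp and 0.249 for Rspo3) or with the close pairs summed (0.0542 for Ndp and 0.0925 for Rspo3). The median of the list was -0.40 over all libraries and 0.28 without the 6. Both are the values of Rspo2, which was not called (adjusted p = 0.563 and 0.741). Of the 2 secretion genes Porcn, which adds the lipid to Wnt proteins, was called (0.57 ± 0.19, adjusted p = 0.0191), but not without the LG/J libraries numbered 1 (0.37, adjusted p = 0.0743).

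Inside the cell, 5 of 13 genes of cytoplasmic transduction were higher and 2 lower. Gsk3b, a kinase that marks β-catenin for breakdown, rose by 0.53 ± 0.08 (adjusted p = 1.63e-06), Apc, a scaffold of the same complex, rose by 0.29 ± 0.07 (adjusted p = 0.00216), and Csnk1a1, its priming kinase, fell by 0.50 ± 0.08 (adjusted p = 2.04e-05). Of 13 nuclear effectors 4 were higher and none lower in LG/J by edgeR, among them partners of β-catenin. Tcf7l2 was higher by 0.76 ± 0.06 (adjusted p = 6.06e-12). For Lef1, which is also on the list of feedback and target genes, the difference was 1.52 ± 0.18 (adjusted p = 4.73e-08). Tle4, a co-repressor, was higher as well (0.60 ± 0.19, adjusted p = 0.014), but not called without the 6 dual-signal libraries (adjusted p = 0.143) or with the close pairs summed (adjusted p = 0.0826). Tcf7 (0.65 ± 0.24, adjusted p = 0.0355) was not called without the LG/J libraries numbered 1 (adjusted p = 0.101) or without the 6 dual-signal libraries (adjusted p = 0.0731). Of 12 feedback and target genes besides Axin2, 4 were higher and 1 lower. The lower gene was Nkd1 (-0.64 ± 0.22, adjusted p = 0.0262, and 0.0535 without the LG/J libraries numbered 1). Ccnd1, the cyclin D1 gene, averaged 51.6 ± 28.9 CPM in LG/J, against 24.5 ± 8.99 CPM in SM/J (1.07 ± 0.23, adjusted p = 0.000536), and Znrf3, a ligase that removes Frizzled from the membrane, rose by 0.22 ± 0.07 (adjusted p = 0.0174, and 0.275 without the 6 dual-signal libraries and 0.118 with the close pairs summed). Of 13 genes of the planar polarity branch 3 were higher and 1 lower. Ror2, a receptor for Wnt5a, averaged 3.60 ± 1.31 CPM in LG/J, against 2.50 ± 0.909 CPM in SM/J (0.53 ± 0.17, adjusted p = 0.017), and Prickle1 rose by 0.73 ± 0.18 (adjusted p = 0.00181) and Celsr2 by 1.18 ± 0.36 (adjusted p = 0.0134, and 0.256 without the 6 dual-signal libraries and 0.103 with the close pairs summed).

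Each of the 10 genes was also matched to the genes whose level followed it most closely. Likeness was Pearson r of log2 CPM after the mean of each strain-by-sex group was subtracted, over the 30 libraries and 13809 named genes, and it is a description with no test. Frzb was matched most closely, by Csgalnact1, an enzyme that starts chondroitin sulphate chains (r = 0.971, rho = 0.961), and by Adhfe1 (r = 0.965). Wnt4 was followed by Angptl2 (r = 0.919) and Psrc1 (r = 0.886), and Wif1 by Icam1, a cell adhesion molecule (r = 0.907), and Dio2, the enzyme that activates thyroid hormone (r = 0.882). Wnt11 was followed by Sp7, the osteoblast transcription factor osterix (r = 0.838, rho = 0.846), and Impa2 (r = 0.822, and 0.28 with all 32 libraries). Wnt5a was followed by Serinc5 (r = 0.799), and the genes nearest to Sfrp2 were Irf9, a factor of interferon signalling (r = 0.815), and C4a (r = 0.785), which is uncertain because C4b is a close copy of it. Wnt5b was nearest to Rhbdl2 (r = 0.758), which itself was higher in LG/J by 3.16 on the log2 scale, and to Mcoln2 (r = 0.672). The best matches of Axin2, Sfrp1 and Wnt16 were the weakest among the 10 genes. They were Pdpr (r = 0.741) and Ehbp1 (r = 0.713) for Axin2, Cdc25a (r = 0.716) and Tfam (r = 0.65, and 0.0566 with all 32 libraries) for Sfrp1, and Pgr15l (r = 0.659) and Cntn4 (r = 0.656) for Wnt16.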

How the data were processed

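The submitters' processing notes name STAR 2.0.4b, Subread featureCounts 1.45 and GRCm38, and the labels name SMARTer libraries. Neither the annotation release nor the strand setting is given in the sources used here. Deposited whole-number counts were the input of every test. The deposited CPM equalled the count over the library total (largest difference 1.2e-10), and the deposited RPKM equalled that CPM over gene length (4.9e-11). Totals ran from 15840330 to 25571598, and intervals and floors (3 counts) cover counting error only. Symbols came from a reference table by Ensembl ID, and the 1134 of 41388 IDs without one held 0.109% of counts.

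Genes kept by filterByExpr (16136) were scaled by TMM and fitted with edgeR 4.0.16 in R 4.3.3 (robust quasi-likelihood, 1 mean for each of 4 strain-by-sex groups), and p-values over all genes kept had the Benjamini-Hochberg adjustment, with calls at an adjusted p under 0.05. SE is the log2 fold change over the root of its F statistic. Levels of 1 gene across libraries are TMM-scaled CPM, and levels between genes are deposited RPKM. Permutation tests (two-sided, 100000 resamples) shuffled libraries within groups. DESeq2 1.42.0, limma 3.58.1 voom with quality weights, other scalings, other filters, the library number as a block and left-out or summed libraries were alternatives. Leaving the 6 dual-signal libraries out within each sex, and averaging the close pairs in correlations, were added after seeing the data. The fit was checked on simulated counts. There it recovered 57.7% of 1.5-fold and 80.4% of 2-fold changes, and 6.29% of its 143 calls were false. The simulation changed 100 genes at each fold among 15862, a far smaller share than was called in the data. Its libraries were independent, with no outlying, dual-signal or close libraries, so these rates need not hold for the data. The closeness of 2 libraries is the median over genes of the squared difference over its Poisson variance, divided by the median of that ratio under noise alone, over 11259 genes with a mean count of at least 50. Positions of genes were taken from the deposited tables (GRCm38).

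The genes and lists were chosen with earlier results of these data known, and the 6 libraries, the 2 LG/J libraries numbered 1 and the 6 pairs were also known from them. Named were all 10 genes, up to 3 called genes per Wnt list with the smallest p that were also called the same way without the LG/J libraries numbered 1, and the 2 genes most like each of the 10, of which 1 is not reported here. Porcn, Igfbp4, Tcf7, Nkd1, Rspo2, Fbxl14 and Gm26771 were named after their values were seen.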

Additional observations from a re-analysis of the deposited data

Results flagged for a closer look

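In 8 of 40 groups of 8 libraries (10 genes in 4 groups) 1 library lay far from the rest by Dixon's test at 95% (gap over range above 0.526), where chance flags about 1 in 20. That rate holds for normal and independent values. Untransformed CPM from few reads, with close pairs in some groups, need not meet it. Of these 8 values, 5 belonged to the LG/J libraries numbered 1. Sfrp1 was at 4.50 CPM in LG/J female 1 (next highest 1.499 CPM) and at 5.81 CPM in LG/J male 1 (next 1.88 CPM). Wnt16 was at 1.20 CPM in LG/J male 1 (next 0.575 CPM), where Wnt5a was lowest at 11.4 CPM (next lowest 18.7 CPM). Sfrp2 was at 2.22 CPM in LG/J female 1 (next 1.05 CPM). In those 2 libraries chondrocyte markers were low and inflammatory genes high, and the part of that in these values was not tested.

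The other 3 were in SM/J. Sfrp2 was at 3.41 CPM in SM/J female 2 (next 1.14 CPM) and at 1.83 CPM in SM/J male 2 (next 0.982 CPM), and Frzb was at 229.9 CPM in SM/J male 1 (next 134.9 CPM).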

How the results depend on the processing

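Values here are log2 fold changes. Over both sexes, Wnt5a (0.73 to 0.98, adjusted p 6.51e-07 to 0.00286) and Wnt5b (1.29 to 1.54, adjusted p 7.81e-08 to 0.00104) were called under all 44 alternatives, 32 of which leave out 1 library. Frzb was called under 41, and was not called with the library number as a replicate block (0.98, adjusted p = 0.0507), without the 6 dual-signal libraries and with the close pairs summed. The labels do not say whether the numbers pair the libraries, and the values do not settle it. Of 48 pairs with the same number 30 correlated above 0.1 (-0.447 to 0.844), and in 6 the own number was the best match. Under the block Wnt11 was at -0.022, Sfrp2 at 0.086 and Wif1 at 0.023. By voom Sfrp1 was at -0.17, Sfrp2 at 0.018 and Wif1 at 0.049, and by library size alone Wif1 was at 0.013.

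Without the LG/J libraries numbered 1, Sfrp1 was at -0.11 over both sexes, -0.0054 in females, -0.22 in males and -0.10 for sex in LG/J, Wnt16 at -0.22 in females, and Wnt11 at 0.027 and Sfrp2 at -0.043 in males. Without the 6 dual-signal libraries Wnt4 was at 0.44 and Wif1 at -0.53 in females, Wif1 at 0.15 in males, Sfrp1 at -0.094 for sex in LG/J, Wnt5b at 0.058 and Frzb at -0.28 for sex in SM/J, and Wnt4 at -0.18 and Wif1 at 0.68 for the difference of the strain effects between the sexes. None of these reversed values was called, and the cause was not tested. Leaving out 1 library, Wnt4 ran from -0.0046 to 0.22, Wnt11 from -0.088 to 0.12, Sfrp2 from -0.34 to 0.22 and Wif1 from -0.080 to 0.067.

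Genes of the other Wnt lists called numbered 32, 19 without the 6 dual-signal libraries and 20 with the close pairs summed, both of which test fewer samples. The shares of all genes called were 29.9%, 23.8% and 22.1% in the same order. Of the 10 genes, 2 were called in females and 1 without the 6. Sex genes called in SM/J numbered 929, 1402 without the LG/J libraries numbered 1 and 490 without the 6. For the difference of the strain effects 1 gene was called, 0 without the 6 by edgeR. Axin2 could not be tested under a CPM of 1 in 8 libraries. Axin2 and Wnt16, at 0 to 24 reads a library, are limited by depth.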
